A study of Mus musculus with 24 samples.

Results

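Imprinted genes, those expressed mainly from the copy inherited from the mother or mainly from the copy inherited from the father, were examined in cultured mouse muscle cells. Of 40 listed imprinted genes, 34 had a transcript cluster (the set of probes that the array assigns to a locus) whose only gene symbol was theirs, out of 22180 genes measured that way. They comprise 19 paternally expressed genes, 11 maternally expressed genes and 4 whose imprinting is restricted to certain tissues or isoforms (Ddc, Ube3a, Gnas and Blcap). H19, Mirg, Rtl1 and Snrpn appeared only in clusters with several symbols, Zrsr1 and Commd1 in no named cluster, and these 6 were not analysed here. Plagl1, Ube3a and Nnat had more than 1 cluster, and the brightest cluster by its mean on the 24 arrays was taken.

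RNA was measured on 24 arrays, 6 in each combination of maternal diet and medium, in primary cells from the quadriceps of offspring of ICR mice. Control dams ate freely. Undernourished dams received 50% of the food of gestation-matched controls from day 12.5 of pregnancy until delivery, when free feeding returned. Litters of both groups were brought to equal size a day after birth, and the age of the offspring at cell isolation is not given in the sources used here. Cells of both groups were expanded in medium with fetal bovine serum and basic fibroblast growth factor. Standard medium was the differentiation medium, with 5.5 mM glucose and 2% serum. Limited medium, given overnight, had less glucose (0.5 mM) and serum (1%), with glutamine at 1 mM and carnitine at 0.5 mM, so the media differed in several components at once. Each combination of maternal diet and medium holds the same 6 culture numbers of that diet (5, 10, 11, 15, 16 and 24 for control, 1, 4, 8, 9, 12 and 20 for undernourished). What a number stands for (offspring, litter or dish) is not in the labels. The p-values thus measure only how far these samples spread, which may be partly technical.

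Genomic imprints are methylation marks on DNA that are laid down in egg or sperm and kept after fertilization, and many of the genes they silence on a single parental copy lie in clusters under a shared control region. Many imprinted genes act on fetal growth, and paternally expressed members are often described as promoting it and maternally expressed members as restraining it. In muscle, Igf2, Dlk1, Peg3, Cdkn1c and Grb10 are known for roles in the growth and differentiation of muscle cells and their progenitors. The arrays measure total RNA of a gene, so neither the allele of origin nor a loss of imprinting can be read from them.

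The cultures had the transcripts of differentiated muscle. The 15 myotube markers (contractile genes such as Ckm and Acta1) had a mean log2 signal of 11.39 ± 0.26 (SD, n = 6) in the control standard group, and 8 myoblast markers of 9.52 ± 0.05. Markers of fibroblasts set some cultures apart. Their mean was 7.91 in control culture 16 and 7.94 in undernourished culture 20, against 6.72 in control culture 24 and 5.60 to 5.99 in the other cultures. Culture 20 was also highest in Schwann and glial markers, with a mean of 8.40, before culture 16 (6.97), culture 24 (6.88) and the rest (6.05 to 6.33). In these bulk samples, fewer cells of a type and less RNA per cell cannot be told apart. Cultures 9 and 12 stood apart in another way: the arrays that shared those numbers did not deviate from their group means together (correlation over all genes of -0.05 and 0.02), while the other cultures reached up to 0.56.

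In limited medium 10 of the 34 imprinted genes fell and 0 rose. Mest fell most, and the others were Plagl1, Sgce, Peg10, Peg3, Airn and Impact (paternally expressed), Ppp1r9a (maternally expressed), and Ddc and Blcap (restricted imprinting). All tests are limma fits of limited minus standard medium over both maternal diets, with Benjamini-Hochberg adjustment over all 22180 genes and a threshold of 0.05. Among all genes 6.84% passed in either direction, 3.28% lower and 3.56% higher, against 29.4% of the imprinted genes, every one of them lower. Brighter genes passed more often. Of 11090 genes at or above the median level of all genes, 642 passed lower and 714 higher. Of the 22 imprinted genes at that level, 10 passed lower and 0 higher. The members were chosen with earlier results of these data known, so these shares describe the list and do not test it. Of 29 other imprinted genes, 6.9% fell and 0 rose, with a median log2 difference of -0.04 and 19 below 0. At an unadjusted p under 0.05 the count was 13 of 34 beside 20.3% of all genes. The median difference of the 34 genes was -0.13 on the log2 scale, with 29 below 0, beside a median of 0.01 over all genes with 48.2% below 0.

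**Figure D1:**
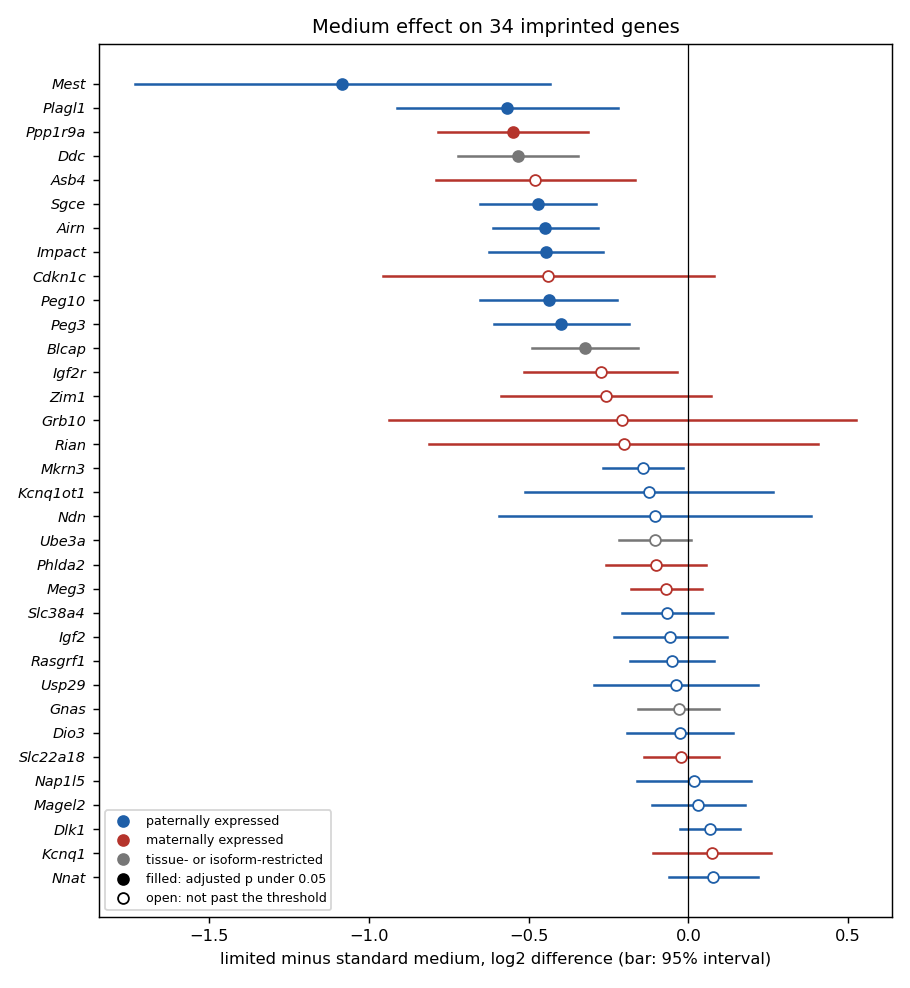
Medium effect on each of the 34 imprinted genes (x axis: limited minus standard medium, log2 difference over both maternal diets, with the 95% interval of the limma fit as a bar), coloured by expressed allele. Filled points passed an adjusted p of 0.05, and all 10 of them lie below 0, from Mest at -1.08 to Blcap at -0.32.

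The stretches around the annotated starts of Mest, Plagl1 and Peg3 are shown because these 3 paternally expressed genes fell and are among the best known imprinted loci, with a germline imprint at or near the start. Each is the RefSeq window from 250 bases before to 50 after a start, in GRCm38.p6, read 5′ to 3′ on the strand of the gene. Capitals mark TGCCGC or its reverse complement GCGGCA, the hexamer that the imprint-keeping zinc finger protein ZFP57 binds when methylated. No other motif was searched. The Mest window is chr6:30737800-30738099 on the plus strand, from the second of 3 annotated starts, and holds 17 CpG and 2 hexamers. The Plagl1 window, chr10:13090582-13090881 on the plus strand, holds 26 CpG and 1 hexamer. The Peg3 window, chr7:6730370-6730669 on the minus strand, holds 13 CpG and no hexamer, and most of it is shared with the start of Usp29, which is transcribed the other way.
Mest: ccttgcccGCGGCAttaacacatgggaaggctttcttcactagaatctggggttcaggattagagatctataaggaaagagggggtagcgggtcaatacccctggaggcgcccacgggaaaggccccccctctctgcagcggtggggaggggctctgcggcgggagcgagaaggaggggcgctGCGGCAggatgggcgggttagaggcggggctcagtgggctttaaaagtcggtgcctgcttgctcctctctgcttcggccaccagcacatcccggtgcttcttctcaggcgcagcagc
Plagl1: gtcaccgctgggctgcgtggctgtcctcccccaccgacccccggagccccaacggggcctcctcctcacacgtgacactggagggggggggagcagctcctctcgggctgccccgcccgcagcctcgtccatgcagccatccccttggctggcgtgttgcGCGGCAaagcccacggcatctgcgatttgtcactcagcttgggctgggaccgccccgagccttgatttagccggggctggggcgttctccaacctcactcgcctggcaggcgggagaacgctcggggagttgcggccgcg
Peg3: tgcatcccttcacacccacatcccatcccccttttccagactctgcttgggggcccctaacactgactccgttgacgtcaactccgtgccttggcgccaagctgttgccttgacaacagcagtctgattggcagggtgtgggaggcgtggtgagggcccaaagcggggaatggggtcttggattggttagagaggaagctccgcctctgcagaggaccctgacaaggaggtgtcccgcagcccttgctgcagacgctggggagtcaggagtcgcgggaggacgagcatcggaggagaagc

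RefSeq windows were used for 29 of the 34 genes, 44 windows in all, some of which overlap. Windows on chromosome 18, where Impact lies, were left out, also from the counts over all windows. The hexamer occurred in 20.5% of them, beside 11.6% of all 32841 windows of that length. Counted by gene, since windows of a gene can share a site, it occurred in 8 of 29 imprinted genes (27.6%), beside 13.1% of all genes with a window. It was found for 2 of the 7 genes with a window that fell and 6 of the 22 that were not called, a near-equal share (28.6% and 27.3%). Imprinted windows had a median of 13.5 CpG against 7 over all windows. These are counts of letters in the reference and say nothing about binding or methylation in these cells. Mest and Plagl1 had it in a window, as did Nnat, Nap1l5, Zim1, Igf2, Grb10 and Meg3.

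Mest, a protein of the alpha/beta hydrolase fold made in mesoderm and growing fat, ranged from 8.59 to 9.65 (median 9.16, log2 signal) in control standard arrays and from 7.24 to 9.28 (median 8.06) in control limited arrays. In undernourished cultures it ran from 7.70 to 11.23 (median 9.09) in standard and from 7.00 to 9.41 (median 8.30) in limited medium. The ranges overlapped in both diets, and the highest standard array belonged to undernourished culture 4. Mest was lower by 1.08 ± 0.32 on the log2 scale (SE; 2.12-fold), with an adjusted p of 0.0365 by limma. The difference ran from -2.89 in culture 4 to 0.33 in culture 5, the only culture of 12 in which Mest was higher in limited medium. Its call did not survive the removal of any of 7 single cultures, with adjusted p up to 0.106.

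Plagl1 encodes a zinc finger transcription factor that restrains growth and regulates other imprinted genes, Mest, Cdkn1c and Dlk1 among its reported targets. It ranged from 7.42 to 8.19 (median 7.87) in control standard and from 6.71 to 7.51 (median 7.15) in control limited arrays. Undernourished standard arrays ran from 6.82 to 8.93 (median 7.44) and limited arrays from 6.69 to 7.57 (median 7.18). Culture 4 was again the highest standard array, 8.93 against at most 7.59 in the other 5. Plagl1 fell by 0.57 ± 0.17 on the log2 scale (limma adjusted p = 0.0406) and was lower in 11 of 12 cultures, the exception being culture 9. Its call was close to the threshold. Averaging both of its clusters in place of the brighter gave -0.35 with an adjusted p of 0.0771, and leaving out any of 9 single cultures also ended it, with adjusted p up to 0.0859.

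The Peg10-Sgce domain on chromosome 6 holds neighbours of either parental expression, and 3 of its 4 measured genes fell. Sgce, the paternally expressed epsilon-sarcoglycan of the dystrophin-associated complex, ranged from 6.72 to 6.97 (median 6.83) in control standard and from 6.33 to 6.67 (median 6.46) in control limited arrays, which do not overlap. In undernourished cultures it ran from 6.68 to 7.54 (median 6.92) in standard and from 6.11 to 6.88 (median 6.30) in limited medium. Sgce fell by 0.47 ± 0.09 (limma adjusted p = 0.00201) and was lower in 12 of 12 cultures.

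Peg10, a protein derived from a retrotransposon and needed in placenta, is also paternally expressed. Its control arrays ran from 8.94 to 9.73 (median 9.53) in standard and from 8.70 to 9.32 (median 9.13) in limited medium. Undernourished arrays ran from 9.20 to 9.79 (median 9.42) and from 8.73 to 9.45 (median 8.89). The groups overlapped, yet each culture was lower in limited medium than in standard medium, by 0.44 ± 0.10 in the fit (limma adjusted p = 0.0112).

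Ppp1r9a encodes neurabin, an actin-binding scaffold for protein phosphatase 1, and is maternally expressed in certain tissues. It was counted here with the 11 maternally expressed genes and was the only gene of these that passed. Its levels ran from 6.51 to 7.27 (median 6.90) in control standard and from 6.24 to 6.46 (median 6.42) in control limited arrays. In undernourished cultures they ran from 6.39 to 7.26 (median 6.76) and from 5.74 to 6.68 (median 6.24). Control ranges did not overlap and undernourished ranges did. The fall was 0.55 ± 0.11 (limma adjusted p = 0.00444), in 12 of 12 cultures, from -1.52 in culture 12 to -0.05 in culture 24.

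Asb4, a maternally expressed substrate adaptor of ubiquitin ligases in the same domain, lay just outside the threshold at -0.48 ± 0.15 (limma adjusted p = 0.0555), with lower values in 11 of 12 cultures. Its medians were 5.80 in control standard, 5.44 in control limited, 5.60 in undernourished standard and 5.18 in undernourished limited arrays. With culture number as a fixed block, Asb4 passed within control (limma adjusted p = 0.036) and undernourished cultures (0.0153). With a random block it passed in neither diet alone. All 4 genes of this domain thus had differences below 0.

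In the Igf2r domain on chromosome 17, Airn fell and Igf2r was not called. Airn is a paternally expressed noncoding RNA that silences Igf2r in some tissues and overlaps it on the opposite strand. It ranged from 6.66 to 7.26 (median 6.96) in control standard and from 6.41 to 6.71 (median 6.52) in control limited arrays, and from 6.66 to 7.22 (median 6.89) and 6.35 to 6.65 (median 6.40) in undernourished ones. Control ranges overlapped, and undernourished ranges came close without overlapping. The fall of 0.45 ± 0.08 (limma adjusted p = 0.00137) was seen in 12 of 12 cultures. Igf2r, the receptor that carries IGF2 and lysosomal enzymes to lysosomes, had medians of 9.79 and 9.61 in control and 9.86 and 9.28 in undernourished cultures, in standard and limited medium. Its difference was -0.27 ± 0.12 (limma adjusted p = 0.173), with lower values in 10 of 12 cultures. The noncoding RNA and the gene it can silence thus both had differences below 0. Because the loci overlap, signal from unspliced RNA of the neighbour was not separated here.

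Peg3, on chromosome 7, is a zinc finger protein known from muscle stem cells and maternal behaviour. Its control arrays ran from 11.78 to 12.35 (median 12.15) in standard and from 11.58 to 11.75 (median 11.68) in limited medium, which do not overlap. Undernourished arrays ran from 11.56 to 12.48 (median 12.28) and from 11.43 to 12.11 (median 11.70). Peg3 fell by 0.40 ± 0.10 (limma adjusted p = 0.0177) in 11 of 12 cultures, the exception being culture 9. The call was lost without culture 11, 4 or 12, with adjusted p between 0.0522 and 0.0625. Neighbouring Zim1, a maternally expressed zinc finger gene, was not called (-0.26 ± 0.16, limma adjusted p = 0.386) although 11 of 12 cultures were lower. The ubiquitin peptidase gene Usp29, which shares the control region of Peg3, stood at -0.04 ± 0.12.

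Impact encodes an inhibitor of GCN2, the kinase that senses uncharged transfer RNA and phosphorylates the translation factor eIF2alpha. It ranged from 9.75 to 10.24 (median 9.91) in control standard and from 9.31 to 9.74 (median 9.48) in control limited arrays, ranges that come close without overlapping. Undernourished arrays ran from 9.51 to 10.31 (median 9.95) and from 9.14 to 9.66 (median 9.62). Impact fell by 0.45 ± 0.09 (limma adjusted p = 0.00267) in 11 of 12 cultures, again with culture 9 as the exception.

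Ddc and Blcap, which are imprinted only in certain tissues, also fell. Ddc, the decarboxylase that makes dopamine and serotonin, neighbours Grb10 and has an imprinted form in heart. It ranged from 7.56 to 8.24 (median 7.96) in control standard, 7.01 to 7.78 (median 7.56) in control limited, 7.90 to 8.25 (median 8.06) in undernourished standard and 7.20 to 7.63 (median 7.50) in undernourished limited arrays. Undernourished ranges did not overlap and control ranges did. Its fall of 0.53 ± 0.09 had the smallest adjusted p of the 34 genes, 0.000969 by limma, and was seen in 12 of 12 cultures. Grb10 itself, the adaptor that restrains insulin and IGF1 receptors, was at -0.21 ± 0.36 (adjusted p = 0.807), with 8 of 12 cultures lower. Blcap, a small membrane protein whose gene contains Nnat in an intron, ran from 5.98 to 6.80 (median 6.46) and 5.75 to 6.21 (median 6.16) in control standard and limited arrays. In undernourished arrays it ran from 6.05 to 6.48 (median 6.35) and 5.83 to 6.17 (median 6.11), and it fell by 0.32 ± 0.08 (limma adjusted p = 0.0139) in 11 of 12 cultures. Nnat, a proteolipid of the endoplasmic reticulum, stood at 0.08 ± 0.07 (adjusted p = 0.567).

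**Figure D2:**
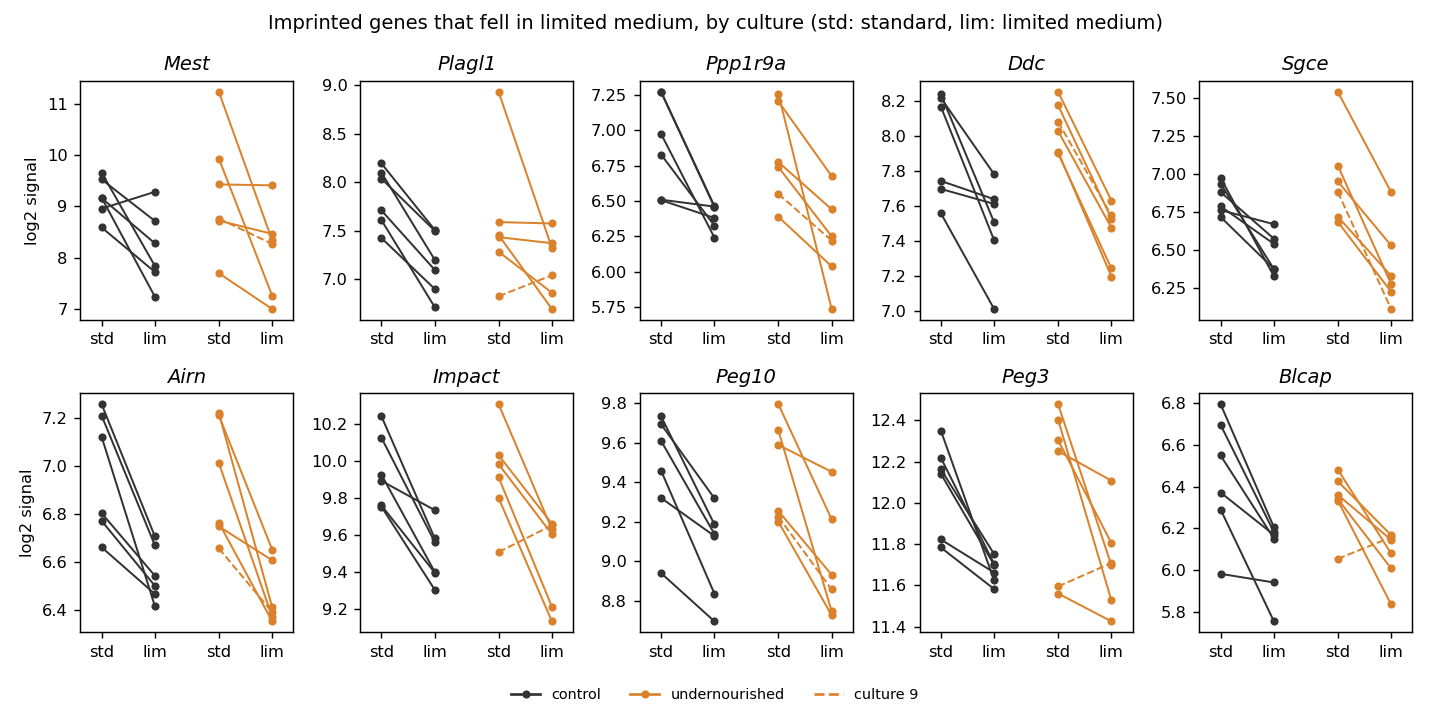
Log2 signal of the 10 imprinted genes that fell, in standard (std) and limited (lim) medium, with a line joining the arrays that share a culture number (6 control and 6 undernourished cultures, each panel with its own scale). Ppp1r9a, Ddc, Sgce, Airn and Peg10 slope down in all 12 cultures, and the dashed culture 9 slopes up for Plagl1, Impact, Peg3 and Blcap.

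The other 24 genes did not pass. In the Kcnq1 domain on chromosome 7, 0 of 5 genes were called. Cdkn1c, the cell cycle inhibitor p57, had a difference as large as that of Peg10 but a wide error (-0.44 ± 0.25, adjusted p = 0.342), being lower in 10 of 12 cultures and higher by 1.21 in culture 5. Control Cdkn1c ran from 7.04 to 8.33 (median 7.51) in standard and 6.13 to 8.26 (median 6.99) in limited medium, and undernourished Cdkn1c from 6.53 to 8.37 (median 7.40) and 6.16 to 8.14 (median 6.95). The long noncoding Kcnq1ot1, which silences the domain from the paternal copy, was at -0.12 ± 0.19 and ran from -1.20 in culture 11 to 1.09 in culture 9. The potassium channel gene Kcnq1 (0.08 ± 0.09), the placental growth regulator Phlda2 (-0.10 ± 0.08) and the transporter Slc22a18 (-0.02 ± 0.06) stayed closer to 0.

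In the Dlk1-Dio3 domain on chromosome 12, 0 of 4 measured genes were called. Dlk1, a membrane protein related to Notch ligands and tied to muscle growth, was at 0.07 ± 0.05. Meg3 was at -0.07 ± 0.05, Rian, which hosts small nucleolar RNAs, at -0.20 ± 0.30 and the thyroid hormone deiodinase Dio3 at -0.03 ± 0.08. The Meg3 value is uncertain, since of the 19 numbered neighbours of its cluster on this chromosome 17 are genes of the minus strand, and Meg3 lies on the plus strand. In the Snrpn domain on chromosome 7, 0 of 4 were called, and the values were -0.11 ± 0.24 for the MAGE family gene Ndn, 0.03 ± 0.07 for Magel2, -0.14 ± 0.06 for the makorin Mkrn3 and -0.10 ± 0.05 for the ubiquitin ligase Ube3a.

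Igf2, the fetal growth factor, was close to 0 as well. It ran from 10.39 to 10.84 (median 10.58) and 10.36 to 10.62 (median 10.54) in control standard and limited arrays, and from 9.99 to 10.87 (median 10.53) and 10.03 to 10.69 (median 10.51) in undernourished ones. The difference was -0.06 ± 0.09, with a 95% interval from -0.23 to 0.12, and 6 of 12 cultures were lower. Gnas (-0.03 ± 0.06), Rasgrf1 (-0.05 ± 0.06), the amino acid transporter Slc38a4 (-0.07 ± 0.07) and Nap1l5 (0.02 ± 0.09) complete the list.

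The order of paternally and maternally expressed genes depended on which members were counted. Of 19 paternally expressed genes, 7 fell and 15 were below 0, with a median of -0.11 (log2 difference). Of 11 maternally expressed genes, 1 fell and 10 were below 0, with a median of -0.21. The gene that fell, Ppp1r9a, is maternally expressed in certain tissues, so this count depends on the class it was given. The counts also depend on the fit, which had no culture block. With culture number as a fixed block, maternally expressed Asb4 and Zim1 passed within control cultures. Paternally expressed Airn, Impact, Peg10, Plagl1 and Sgce passed there too. The 4 genes of restricted imprinting had a median of -0.21, and 2 fell. When members dimmer than the median of all genes (6.02) were left out, the order of the medians turned: -0.40 for 13 paternally expressed and -0.27 for 5 maternally expressed genes. Paternal minus maternal was thus 0.10 over all members and -0.12 over the brighter ones, and the spread of that difference between cultures was 0.13 (SD). Within cultures the paternal median was the higher in 7 of 12. Members share domains and arrays, so these counts and medians are a description without a test.

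By culture, between 17 and 29 of the 34 genes were lower in limited medium, while between 45.8% and 53.7% of all genes were. The median of the paternally expressed genes was below 0 in 12 of 12 cultures and that of the maternally expressed ones in 11, with culture 9 at 0.16. The 10 genes that fell were all lower in 10 of the 12 cultures, 9 of them in culture 5 and 6 in culture 9. Culture 9 held the highest difference for 12 of the 34 genes and culture 12 the lowest for 8. The arrays of each of these 2 numbers did not deviate together from their group means, so the pairing behind these differences is uncertain. Without these 2 cultures, a choice made after seeing the data, 8 of the 10 fell, and Mest (adjusted p = 0.0539) and Peg10 (0.0652) did not pass. Without cultures 16 and 20, which had the high fibroblast and glial markers, 10 genes fell, 9 of them the same. The share of all genes called in that fit is not given here. Of the markers, 2 of 15 myotube genes rose in limited medium, 1 of 8 myoblast genes fell, and 0 of 9 fibroblast and 0 of 6 glial genes were called. The part of these markers in the differences of imprinted genes was not tested.

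The genes that fell had a median genomic span in RefSeq of 39.6 kb, against 28.2 kb for imprinted genes that were not called and 16.2 kb for all genes. Over all genes, the share called lower was 1.34% for the shortest of 4 equal classes of span, then 1.75% and 3.78%, and 6.21% in the longest. In the same classes, 0 of 8, 3 of 5, 3 of 6 and 4 of 15 imprinted genes fell. The part of gene length in their fall was not tested.

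Within control cultures alone, 0 of 34 imprinted genes passed in the limma fit, where 0.343% of all genes did. At an unadjusted p under 0.05 there were 11 imprinted genes, 32.4% of them, beside 13.1% of all genes. The smallest adjusted p-values were those of Airn (-0.42, 0.0928), Impact (-0.45, 0.0992), Ddc (-0.45, 0.122), Blcap (-0.38, 0.135) and Ppp1r9a (-0.50, 0.159), and each of the 5 was lower in 6 of 6 control cultures. The control arrays of a culture number deviated together in each of 6 pairs (correlation from 0.19 to 0.46, each highest with its own number). With the culture number as a fixed block 9 imprinted genes fell in control cultures, where 2.48% of all genes passed, and as a random block 4 fell, where 2% did. Airn, Impact, Ddc and Blcap passed with either block (limma adjusted p from 0.0209 to 0.0455), and Asb4, Peg10, Plagl1, Sgce and Zim1 with the fixed block only. Within undernourished cultures, where 1.46% of all genes passed (0.735% lower and 0.726% higher), 3 imprinted genes fell. These were Ddc (-0.62 ± 0.13, adjusted p = 0.0154), Sgce (-0.58 ± 0.13, 0.0195) and Airn (-0.47 ± 0.11, 0.033), each lower in 6 of 6 cultures. The count dropped to 0 without culture 1, 4 or 12, in fits whose share of all genes called is not given here.

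The medium effect was not shown to differ between the maternal diets. For the difference of the effects 0 of 34 imprinted genes passed, as did 0% of all genes, and at an unadjusted p under 0.05 the counts were 0 imprinted genes and 2.9% of all genes. Nnat had the smallest p, with a difference of 0.25 ± 0.13 (95% interval from -0.03 to 0.53): it was higher in limited medium in 6 of 6 undernourished cultures and 2 of 6 control cultures. Next came Meg3 (0.15 ± 0.11), Slc22a18 (0.15 ± 0.11), Kcnq1ot1 (0.50 ± 0.38) and Phlda2 (0.20 ± 0.15), all with adjusted p of 1 by limma.

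Maternal undernutrition in late gestation gave no call among imprinted genes. In standard medium, in limited medium and over both media, 0 of 34 passed in limma, as did 0% of all genes. At an unadjusted p under 0.05, 0 of 34 were found in each of the 3 comparisons, beside 3.14%, 5.44% and 3.57% of all genes in that order. Ndn had the largest difference over both media, comparing the means of 6 undernourished and 6 control cultures: 0.51 ± 0.30 (95% interval from -0.12 to 1.15, adjusted p = 0.999). Its culture means ran from 6.23 in control culture 15 to 8.29 in undernourished culture 20, and the groups overlapped. After Ndn the smallest p-values were those of Rasgrf1 (-0.08 ± 0.07), Dio3 (-0.10 ± 0.09), Mkrn3 (0.07 ± 0.07) and Ppp1r9a (-0.12 ± 0.11).

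In standard medium the smallest p-values for diet belonged to Nnat (-0.19 ± 0.09), Ndn (0.60 ± 0.33), Rasgrf1 (-0.16 ± 0.09), Phlda2 (-0.17 ± 0.11) and Slc22a18 (-0.13 ± 0.08). In limited medium they belonged to Meg3 (0.12 ± 0.08), Ndn (0.42 ± 0.33), Kcnq1ot1 (0.32 ± 0.27), Dio3 (-0.13 ± 0.11) and Igf2r (-0.18 ± 0.16). Adjusted p was at least 0.931 throughout. The groups overlapped for each of the 34 genes, but overlap was not counted over all genes, so this does not set the members apart. The widest 95% intervals over both media were those of Grb10 (-1.13 to 0.81) and Rian (-1.10 to 0.50), and that of Mest ran from -0.67 to 0.73. A missing call thus does not show that diet had no effect on these or on the other members.

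**Figure D3:**
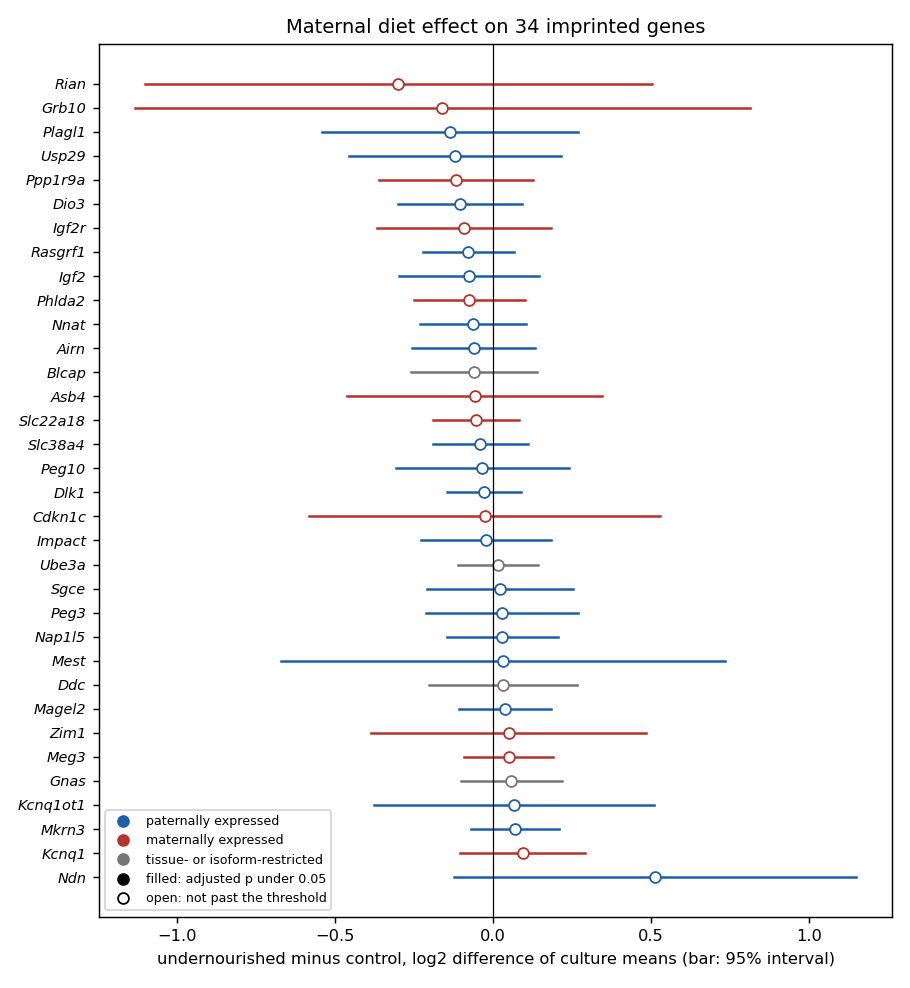
Maternal diet effect on each of the 34 imprinted genes (x axis: undernourished minus control, log2 difference of culture means over both media, with the 95% interval as a bar), coloured by expressed allele. All points are open, since none passed an adjusted p of 0.05, and Ndn lies farthest from 0 at 0.51.

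Several imprinted genes differed widely between cultures. The SD of the 12 culture means had a median of 0.18 over the 34 genes and of 0.14 over all genes, and 22 of the 34 lay above the latter. Grb10 had the largest, 0.89. Its arrays ran from 7.67 to 10.15 (median 8.98) in control standard, 7.62 to 9.83 (median 8.85) in control limited, 7.88 to 10.42 (median 9.03) in undernourished standard and 7.36 to 10.74 (median 8.35) in undernourished limited medium. Culture means of Grb10 spanned 7.65 in culture 16 to 10.58 in culture 9, a 7.62-fold range, while arrays of a culture typically differed by 0.21. In culture 12, however, Grb10 was at 9.06 in standard and 7.36 in limited medium.

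Rian, next with an SD of 0.74, ran from 4.30 in culture 1 to 6.48 in culture 24. It was at or above 5.68 on both arrays of cultures 5, 9, 20 and 24, of which 5 and 24 are control. Its group ranges were 4.56 to 6.93 (median 5.15) in control standard, 4.62 to 6.04 (5.24) in control limited, 4.16 to 6.34 (5.14) in undernourished standard and 4.44 to 5.88 (4.80) in undernourished limited medium. Ndn, just after Mest with an SD of 0.64, was set apart by 2 low control cultures, 15 (6.18 and 6.28 on its arrays) and 16 (6.40 and 6.34), while all other arrays lay at 7.21 or above. In control arrays Ndn ran from 6.18 to 8.09 (median 7.63) in standard and from 6.28 to 8.01 (median 7.59) in limited medium. In undernourished arrays the ranges were 7.22 to 8.40 (median 7.93) and 7.21 to 8.18 (median 7.68).

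Mest, the third of the 34 by this measure, also had an SD of 0.64, and Cdkn1c (0.50), Kcnq1ot1 (0.40), Zim1 (0.39) and Plagl1 (0.37) came after Ndn. For Mest the arrays of a culture differed by a median of 0.84 and for Cdkn1c by 0.59, more than the median of 0.21 for Grb10. Kcnq1ot1 was highest in culture 15, at 8.53 and 8.30, and its group medians were 7.63, 7.29, 7.67 and 7.63 in the order control standard, control limited, undernourished standard and undernourished limited. Zim1 was lowest in culture 20 (9.33 and 9.30) and highest in culture 1 (10.87 and 10.63), with group medians of 10.39, 9.90, 10.38 and 10.27 in the same order. Culture 20 also had the highest glial markers and culture 16, which had the lowest Grb10 and low Ndn, high fibroblast markers. Ndn was lowest in culture 15, where the mean of fibroblast markers was 5.90, and highest in culture 20, where that mean was 7.94. The part of these cells in the spread was not tested.

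**Figure D4:**
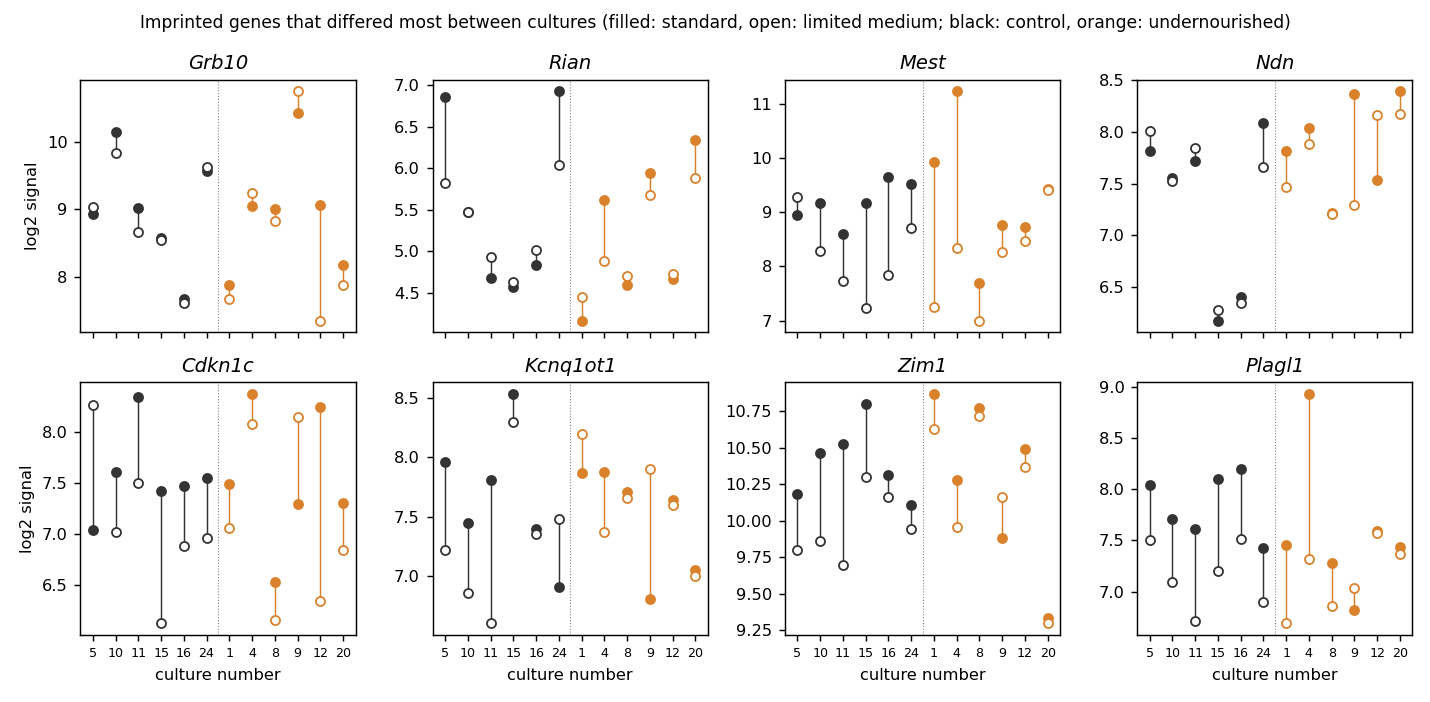
Log2 signal of the 8 imprinted genes with the largest SD between culture means, by culture number (filled: standard medium, open: limited medium, black: control, orange: undernourished, each panel with its own scale). Grb10, Rian and Ndn keep similar levels on both arrays of most cultures, with exceptions such as Grb10 in culture 12, and Mest and Cdkn1c differ between media within many cultures.

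Neighbours or known partners were compared across the 12 culture means for 11 pairs of measured genes, and 0 passed an adjusted p of 0.05 by permutation of cultures. Peg3 and its neighbour Zim1 came closest, with r = 0.74 (permutation p = 0.00492, adjusted over 11 pairs 0.0541) and rho = 0.60 (adjusted p = 0.238). It rested in part on cultures 9 and 20, without which r was 0.47, and within diets r was 0.01 over 6 control and 0.87 over 6 undernourished cultures. Meg3 and Rian, neighbours expressed from the same copy, had r = -0.59 (permutation, adjusted p = 0.232), read from the uncertain Meg3 cluster. For Mest and Plagl1, r was 0.55 (permutation, adjusted p = 0.232), and 0.16 without cultures 4 and 8. For Ndn and Magel2, r was 0.52 (permutation, adjusted p = 0.232). The remaining 7 pairs (Dlk1 with Meg3, Igf2r with Airn, Peg10 with Sgce, Peg3 with Usp29, Cdkn1c with Phlda2 and with Kcnq1ot1, and Nnat with Blcap) had r between -0.29 and 0.41.

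Lists of related genes were read in the same fit. Of 29 other imprinted genes, 2 fell in limited medium over both diets (6.9%, beside 3.28% of all genes) and 0 rose, a share that rests on 2 genes. Copg2, the coatomer subunit gene that lies against Mest, fell by 0.30 ± 0.06 (limma adjusted p = 0.00149) in 12 of 12 cultures, and Phactr2, a neighbour of Plagl1, fell by 0.38 ± 0.10 (0.0259) in 11. Of 17 genes that set or keep imprints, 3 fell (17.6%, beside the same 3.28%) and 0 rose. These were Tet2, which oxidizes methylated cytosine (-0.55 ± 0.12, adjusted p = 0.00489), Zfp445, a zinc finger protein that binds imprinted control regions (-0.40 ± 0.08, 0.00444), and Smchd1, a chromatin protein that keeps some imprinted clusters silent (-0.29 ± 0.09, 0.0392). Of 13 genes of the IGF system other than members, 2 fell (15.4%, beside 3.28%) and 0 rose: the receptor Igf1r (-0.60 ± 0.12, adjusted p = 0.00248) and the growth factor Igf1 (-0.30 ± 0.08, 0.0249). Within diets, Copg2 passed in undernourished cultures (-0.37 ± 0.08, adjusted p = 0.0158) and Zfp445 in control cultures (-0.52 ± 0.12, 0.0482). No gene of these 3 lists passed for maternal diet, where 0% of all genes did.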

How the data were processed

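The deposited table holds 41345 transcript clusters on 24 arrays. The authors made its log2 values with RMA (background correction, quantile normalization and median polish) in Affymetrix Expression Console, per the submitters' processing notes; versions, genome build and log base were not given in the sources used here, and the values (1.69 to 14.1, array medians 5.60 to 5.81) were read as log2. Clusters were named through the platform's annotation and RefSeq (GRCm38.p6), which held 23328 of the 23521 clusters with 1 symbol; 1814 with several symbols and 16010 not named here stayed out. For 1082 genes the brightest of several clusters was used. Each of 22180 genes was fitted with limma 3.58.1 (R 4.3.3, lmFit and eBayes, 4 groups, two-sided) with Benjamini-Hochberg adjustment, and dim genes were kept. The procedure was first run on simulated data. There the likeness of arrays of a culture was set and not taken from these data. The simulation thus does not show that a fit without a culture block suits them. Diet over both media was fitted on 12 culture means. Precision is limited by how many arrays there are. None held the values of another (highest correlation 0.990).

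Members, lists and tests were chosen with earlier results of these data known. By rule, full values are given for called members, the 8 with the largest SD between cultures and the compared pairs, otherwise the 5 smallest p-values of a comparison, and called genes only for other lists. Arrays that share a culture number deviated together in all 6 control pairs (correlation over 0.1) and in 4 of 6 undernourished pairs. Cultures 9 and 12 did not, so their pairing is uncertain. This was read from the data and not from the labels. Counts by culture and culture means join arrays by number in both diets. Pairs of genes were tested with 100000 permutations of cultures. Alternatives changed normalization, level filter, clusters, array weights, the culture block, a number in the titles as covariate, and the samples included.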

Additional observations from a re-analysis of the deposited data

Results flagged for a closer look

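In 136 groups of 6 arrays (34 genes in 4 groups), 5 held an array far from the rest, and chance alone gives about 1 in 20. In undernourished cultures in standard medium, culture 4 had Plagl1 at 8.93 (log2 signal), against 6.82 to 7.59 on the other arrays. The same array had Phlda2 at 3.53, against 3.70 to 3.77. In the same group, culture 1 had Kcnq1 at 5.15, against 5.77 to 6.04, and culture 9 had Blcap at 6.05, against 6.33 to 6.48. In control cultures in limited medium, culture 15 had Nap1l5 at 5.48, against 6.03 to 6.25.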

How the results depend on the processing

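Of 286 recomputed calls of single genes under the alternatives, 247 stayed past the threshold, 39 did not, and 0 changed sign; Sgce, Airn, Ddc, Ppp1r9a, Impact and Blcap kept their call over both diets under all 22 alternatives. Over both diets 7 to 11 members were called when 1 culture was left out (Mest, Plagl1 or Peg3 being lost most often). The count was 12 with culture number as a fixed block (11.7% of all genes called) and 11 as a random block (10.9%). It was 8 without cultures 9 and 12 (4.1%). For fits without 1 culture, the share of all genes called is not given over both diets or within undernourished cultures. Those counts alone thus do not set imprinted genes apart from other genes. Within control cultures, where 0 were called, the counts, with the share of all genes called in the same fit, were 1 with array weights (1.24%), 9 with a fixed (2.48%) and 4 with a random block (2%), 2 at an adjusted p under 0.1 (1.14%), and 0 to 1 with 1 culture left out (Sgce, without undernourished culture 20, 0.73%). Within undernourished cultures, where 3 were called, they were 5 with dim genes left out (4.25%), 6 with array weights (2.57%), 7 with a fixed (4.54%) and 6 with a random block (3.71%), 5 at an adjusted p under 0.1 (2.8%), 0 without cultures 9 and 12 (0.0451%, chosen after seeing the data), and 0 to 3 with 1 culture left out, 0 without culture 1, 4 or 12; the cause was not tested. Arrays of a culture number correlated from 0.19 to 0.46 in their deviations in control pairs. In undernourished pairs the range was -0.05 to 0.56, where 2 of 6, cultures 9 and 12, were under 0.1. Pairing by number is thus uncertain for those 2 cultures, while the other 4 undernourished pairs deviated together. The paternal minus maternal median was -0.12 with dim genes left out and 0.10 to 0.17 with 1 culture left out. Of 11 pairs, 1 passed under quantile normalization (Peg3 and Zim1, permutation adjusted p = 0.0480) and 1 without cultures 16 and 20 (Meg3 and Rian, r = -0.84, permutation adjusted p = 0.0238). Diet and the difference of medium effects gave 0 members under each alternative run. No detection calls were used, so values of dim genes are less certain.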
